A study of Mus musculus with 6 samples.

Results

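The HSP70 and HSP110 chaperones are described here across brown adipose tissue of WT and ADCY3∆AT mice. The members are the 10 genes Hspa1a, Hspa1b, Hspa2, Hspa4, Hspa4l, Hspa5, Hspa8, Hspa9, Hspa13 and Hsph1, found by their Ensembl identifiers among the 54385 rows of the deposited table through GENCODE release M21 symbols. They were chosen by a list written with earlier results of the same libraries in view, so their genotype differences are given as a description and support nothing by themselves. Polyadenylated RNA was sequenced in 3 WT and 3 ADCY3∆AT libraries from mice of the C57BL/6N strain, all 20 weeks old and fed chow. The genotype of the second group is a loss of Adcy3-AT, a shorter transcript of Adcy3, the gene of the cyclic AMP forming enzyme adenylyl cyclase 3. The labels used here do not describe how the allele was made, the housing temperature or the sex of the mice. The sample labels name the depot as interscapular and the series text as inguinal brown adipose tissue, which are different places in the body. Nothing in the labels ties each library to a separate mouse, so the errors below measure the spread between libraries.

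HSP70 proteins bind exposed hydrophobic stretches of unfolded proteins in a cycle driven by ATP. J-domain proteins bring them their clients and start ATP hydrolysis, and nucleotide exchange factors, among them the HSP110 proteins, release ADP so that the client can leave. Each compartment has its own forms. Hspa8 is the constitutive cytosolic form, Hspa1a and Hspa1b are its heat-inducible relatives, Hspa5 (BiP) serves the endoplasmic reticulum and Hspa9 (mortalin) the mitochondria. The inducible forms are classical targets of heat shock factor 1, which binds repeats of the unit NGAAN in alternating orientation, and Hspa5 is a classical target of the unfolded protein response. Hspa9 is part of the motor that pulls nuclear-encoded proteins into the mitochondria, of which brown adipocytes hold many.

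The start regions of 4 members are shown because they carry the elements by which the forms are usually told apart. They are the 250 bases before the RefSeq start on build GRCm38.p6, read 5′ to 3′ on the strand of the gene. Hsph1 has 2 such starts, of which 1 is shown. The stretches are chr17:34972157-34972406 on the minus strand for Hspa1a and chr17:34959239-34959488 on the minus strand for Hspa1b. For Hsph1 the stretch is chr5:149636337-149636586 on the minus strand, and for Hspa5 it is chr2:34771840-34772089 on the plus strand. Capitals mark a heat shock element of 2 units in the first 3 and an ER stress element, CCAAT and CCACG with 9 bases between them, in Hspa5.
Hspa1a: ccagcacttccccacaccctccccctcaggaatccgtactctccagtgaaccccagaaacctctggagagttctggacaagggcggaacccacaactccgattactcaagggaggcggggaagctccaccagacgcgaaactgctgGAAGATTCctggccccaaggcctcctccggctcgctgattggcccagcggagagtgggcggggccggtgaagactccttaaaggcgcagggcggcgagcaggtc
Hspa1b: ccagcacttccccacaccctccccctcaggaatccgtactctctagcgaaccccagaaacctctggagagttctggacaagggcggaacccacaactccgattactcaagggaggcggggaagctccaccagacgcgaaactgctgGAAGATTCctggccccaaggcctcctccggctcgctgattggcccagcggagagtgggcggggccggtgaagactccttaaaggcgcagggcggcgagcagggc
Hsph1: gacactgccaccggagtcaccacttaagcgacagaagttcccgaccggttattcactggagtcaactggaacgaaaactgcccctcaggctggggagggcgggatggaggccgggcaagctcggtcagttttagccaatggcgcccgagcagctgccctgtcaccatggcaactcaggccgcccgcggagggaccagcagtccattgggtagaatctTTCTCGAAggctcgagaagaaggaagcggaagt
Hspa5: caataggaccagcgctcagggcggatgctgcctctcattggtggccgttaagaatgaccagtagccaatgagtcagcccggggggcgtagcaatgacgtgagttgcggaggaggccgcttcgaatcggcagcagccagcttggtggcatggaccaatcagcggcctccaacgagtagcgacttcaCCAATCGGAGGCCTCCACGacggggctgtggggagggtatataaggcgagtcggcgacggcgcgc

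Of the 10 members, 7 had an entry in the RefSeq promoter table, which holds 250 bases before and 50 after each start. The element of 2 units was searched on both strands as GAANNTTC or TTCNNGAA and was found in 15.06% of all 32851 promoters of that length. Hspa1a and Hspa1b each had 1 match, GAAGATTC, at bases -104 to -97 counted from the start. Counted from the start shown, Hsph1 had TTCTCGAA at -33 to -26 and 2 further, overlapping matches after the start. Together these 2 form an element of 3 units at bases 37 to 49. Counted from the other Hsph1 start, the same letters stood at -54 to -47 and at 16 to 28. Such an element, 3 alternating NGAAN units in a row, was found in 0.60% of promoters, and each one contains matches of the shorter form. The ER stress element stood in 0.12% of promoters and, among the members, in Hspa5 at -65 to -47, with its first 5 bases being 1 of the 4 CCAAT matches of that promoter. CCAAT on either strand was present in 37.41% of promoters and in those of Hspa1a, Hspa1b, Hspa2, Hsph1 and Hspa5. TATAAA, present in 13.62% of promoters, and the cyclic AMP response element TGACGTCA, present in 1.79%, had no match in any of the 7. Hspa2 had a CCAAT and none of the other motifs, and Hspa4 and Hspa4l had none of the motifs searched. A match is a run of letters and does not show binding, and no match says only that those letters were not in this window.

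Hspa1a and Hspa1b lie side by side on chromosome 17 of GRCm38, at 34969190 to 34972156 and 34956436 to 34959238, both on the minus strand and 9951 bp apart. Their coding sequences differ at 8 of 1923 aligned bases (99.58% identity), and the 250 bases before their starts differ at 3 (98.80% identity). Of the 31-base words in the Hspa1a transcript, 63.8% also occur in Hspa1b, so the split of estimated counts between the genes is uncertain and their sum is the firmer value. Elsewhere on GRCm38, Hspa8 lies on chromosome 9 (40800984 to 40810087), Hspa2 on 12 (76404176 to 76406938), Hsph1 on 5 (149614287 to 149636376), Hspa4 on 11 (53259814 to 53300457), Hspa4l on 3 (40744495 to 40796103), Hspa5 on 2 (34771970 to 34777547) and Hspa13 on 16 (75745431 to 75767104), and values are for the whole gene. On the 5′ side of Hspa1a, 546 bp above its higher coordinate, lies a further HSP70 gene, Hspa1l. In CPM, which are counts per 1000000 scaled by edgeR's trimmed mean of M-values (TMM), it was at 2.09, 2.07 and 3.16 in WT and at 2.64, 2.72 and 2.83 in ADCY3∆AT replicates 1, 2 and 3, so the groups overlapped at this neighbour.

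The libraries held 13758492 to 19592156 estimated counts, of which 21.9% to 24.4% came from the mitochondrial genome. Of 14332 genes tested with edgeR's quasi-likelihood test at a Benjamini-Hochberg adjusted p of 0.05, 377 (2.63%) were higher and 239 (1.67%) lower in ADCY3∆AT, and 2163 (15.1%) had every ADCY3∆AT library above every WT library. The row of Adcy3 itself did not separate the genotypes, at 166 to 248 CPM in WT and 167 to 239.8 CPM in ADCY3∆AT. A row without a symbol, whose identifier ends in the same 5 digits, was at 118 to 215 CPM in WT and 0 to 1.27 CPM in ADCY3∆AT, and no label used here says what it holds. Brown adipocyte markers, led by Fabp4, summed to 16720 to 17260 CPM in WT and to 15020 to 15780 CPM in ADCY3∆AT. These sums did not overlap, but each of the 6 genes did, and edgeR, DESeq2 and limma-voom called 0 of them. Their log2 fold changes were -0.19 for Fabp4, -0.18 for Ucp1, -0.10 for Adipoq, -0.09 for Plin1, 0.05 for Cidea and 0.03 for Cox8b. The part of these genes in the chaperone values was not tested. Summed CPM of the other marker lists overlapped between genotypes for macrophages (led by Lyz2, 46.2 to 80.2 in WT and 39.1 to 74.7 in ADCY3∆AT), endothelium (Cdh5, 426 to 486 and 423 to 437), fibroblasts (Dcn, 167 to 249 and 152 to 223), lymphocytes (Ptprc, 3.40 to 4.96 and 2.64 to 5.92) and erythroid cells (Hbb-bs, 754 to 1600.5 and 683 to 1287). Schwann cell markers, led by S100b, summed to 54.7 to 57.4 CPM in WT and 57.6 to 94.1 CPM in ADCY3∆AT. Skeletal muscle markers, led by Myh4, were at 22.7 CPM in WT replicate 1, 115 in replicate 2 and 676 in replicate 3, against 1.22 to 2.70 CPM in ADCY3∆AT, and edgeR called 7 of the 9 tested lower, DESeq2 10 and limma-voom 0. No marker on any list was at 0 in all 3 libraries of a genotype. In bulk tissue, fewer cells of a type and less RNA per cell cannot be told apart.

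Among the members, 6 of 10 were called higher in ADCY3∆AT, beside 2.63% of all genes tested, and 0 were called lower, beside 1.67%. At an unadjusted p of 0.05, edgeR also gave 6 higher and 0 lower, DESeq2 called 6 and 0, and limma-voom 4 and 0. Over all genes, DESeq2 called 593 higher and 345 lower, and limma-voom 321 and 204. The share of all genes at the unadjusted p was not counted. By edgeR, 2 were called on leaving out WT replicate 1, WT replicate 2 or ADCY3∆AT replicate 2, 3 on leaving out WT replicate 3, 4 on leaving out ADCY3∆AT replicate 3 and 6 on leaving out ADCY3∆AT replicate 1. Over all genes, 84 to 301 were called higher when 1 library was left out. The same 6 members had no overlap between the genotypes, beside 15.1% of all genes. All 10 passed the filter on low counts. The members' median log2 fold change was 0.74, beside -0.01 for all genes tested. By role, both inducible cytosolic HSP70 genes, all 3 HSP110 genes and 1 of the 2 other cytosolic HSP70 genes were called, and neither ER gene nor the mitochondrial gene was. These counts come from the contrast that was in view when the list was made.

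**Figure D1:**
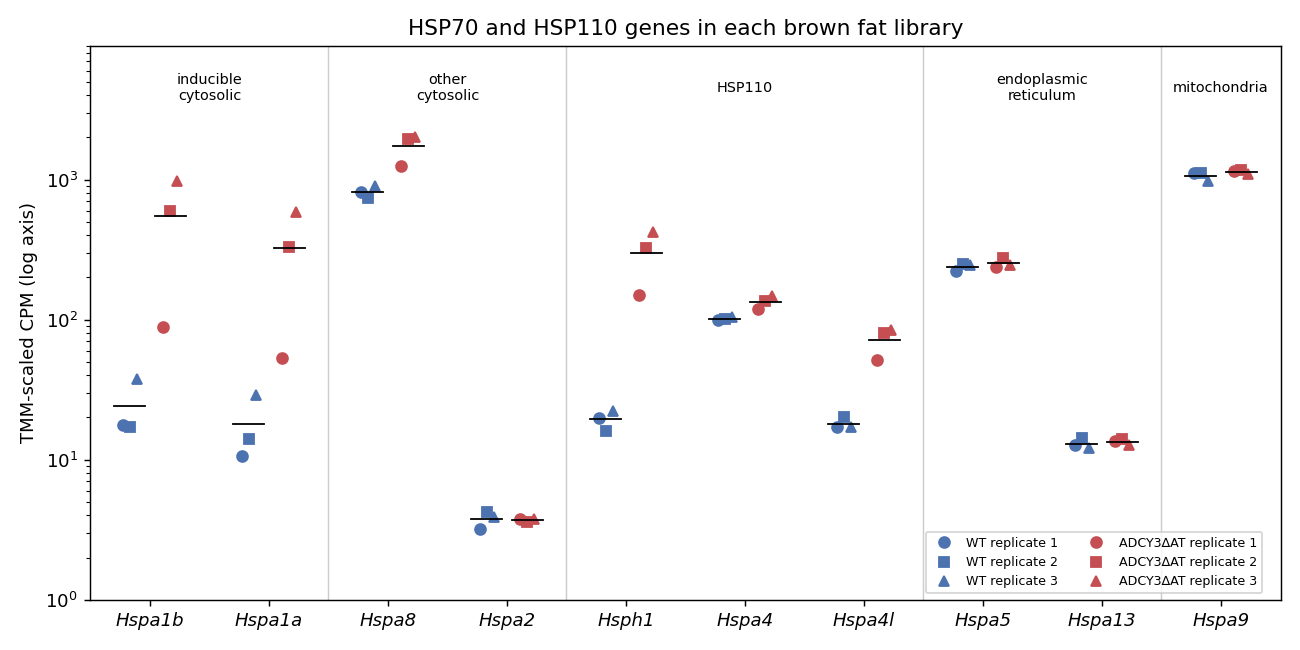
TMM-scaled CPM (log axis) of the 10 chaperone genes in each of the 6 libraries, grouped by role; each symbol is 1 library and each short line the mean of 3. The inducible genes Hspa1a and Hspa1b spread 11.04-fold and 11.02-fold among the ADCY3∆AT libraries, with replicate 1 (circles) at the bottom, and the ER and mitochondrial genes overlap between genotypes.

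Hspa1b encodes the heat-inducible cytosolic HSP70 together with Hspa1a. In WT replicates 1, 2 and 3 it stood at 17.6, 16.998 and 37.8 CPM. In ADCY3∆AT replicates 1, 2 and 3 it stood at 88.6, 592 and 976 CPM. Every ADCY3∆AT library was above every WT library, but replicate 1 lay far nearer to WT than the others. The fitted log2 fold change was 4.51 (SE 0.80, 95% interval 2.68 to 6.33, n = 3 per genotype), or 22.7-fold.

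Hspa1a was at 10.6, 14.04 and 29.1 CPM in WT and at 53.3, 329.6 and 589 CPM in ADCY3∆AT, in replicate order. As for Hspa1b, ADCY3∆AT replicate 1 was lowest of its group and WT replicate 3 highest of its own. Its log2 fold change was 4.16 (SE 0.80, 95% interval 2.33 to 5.99), or 17.9-fold. Hspa1a made up 35.7% to 45.2% of the CPM of the pair in the 6 libraries. WT replicate 3, highest of its group for both genes, also held the most skeletal muscle RNA of all libraries; the part of muscle RNA in the Hspa1 values was not tested.

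Summed, Hspa1a and Hspa1b gave 42.1 ± 21.5 CPM in WT and 876 ± 713 CPM in ADCY3∆AT (SD, n = 3 each). The log2 fold change of the sum was 4.37 (SE 0.80, 95% interval 2.55 to 6.19), or 20.7-fold. The SD of the ADCY3∆AT group was of the order of its mean. The sum passed the threshold with all 6 libraries and without ADCY3∆AT replicate 1 (4.89), and did not when WT replicate 1 (4.16), 2 (4.20) or 3 (4.89) or ADCY3∆AT replicate 2 (4.34) or 3 (3.65) was left out, nor with limma-voom (3.90). Its direction held in each of these. Taken singly, Hspa1a passed the threshold on leaving out ADCY3∆AT replicate 1 and no other library (3.40 to 4.72 over the 6 omissions), Hspa1b on leaving out ADCY3∆AT replicate 1 or 3 (3.81 to 5.02), and neither did with limma-voom (3.70 and 4.01).

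Hspa8 encodes Hsc70, the constitutive cytosolic HSP70 that folds new proteins and strips clathrin from vesicles. Its levels were 820.2, 736 and 893 CPM in WT and 1251, 1958 and 2000.3 CPM in ADCY3∆AT. The groups did not overlap, and ADCY3∆AT replicates 2 and 3 lay close together. The fit put the difference at 2.13-fold, a log2 value of 1.09 (SE 0.17), with a 95% interval from 0.70 to 1.48. Leaving out WT replicate 1 (1.09) or 2 (1.02) or ADCY3∆AT replicate 2 (1.00) ended the call. Hspa8 has many processed copies in the genome, and 61.2% of its 31-base words occur in other genes. The 9 copies that share at least 5% of them summed to 0.222 to 0.659 CPM in the 6 libraries. Those values come from the same estimated counts, so they cannot show how reads were divided between Hspa8 and its copies.

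Hspa2 encodes the HSP70 form best known from the testis. It was at 3.20, 4.21 and 3.89 CPM in WT and at 3.80, 3.59 and 3.80 CPM in ADCY3∆AT, and all ADCY3∆AT values lay inside the WT range. A log2 difference of -0.01 (SE 0.18) had a 95% interval from -0.43 to 0.40, so a difference of more than 0.43 in either direction lay outside the interval.

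Hsph1 encodes Hsp105, the heat-inducible HSP110 and an exchange factor for cytosolic HSP70. WT replicates 1, 2 and 3 had 20.0, 16.0 and 22.3 CPM, and ADCY3∆AT replicates 1, 2 and 3 had 150.1, 325 and 424 CPM. Even the lowest ADCY3∆AT library was far above all WT libraries. Its difference was 15.4-fold, or 3.94 in log2 (SE 0.36), with bounds of 3.11 and 4.77 at 95%. Its call held under all 14 alternatives, with values of 3.61 to 4.27. In 1 of these, Hspa1a and Hspa1b replaced by their sum, the counts of Hsph1 itself are unchanged.

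Hspa4l encodes a further HSP110, Apg-1. It was at 17.04, 20.1 and 17.1 CPM in WT and at 51.4, 80.6 and 84.1 CPM in ADCY3∆AT, with no overlap. The 3.99-fold difference, 2.00 in log2 (SE 0.19), had a 95% interval from 1.57 to 2.42, and the call held under all 14 alternatives, with values of 1.87 to 2.20.

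Hspa4 encodes Apg-2, the HSP110 with the highest level in WT. It was at 99.97, 100.5 and 104.6 CPM in WT and at 119.8, 135 and 148 CPM in ADCY3∆AT, a small step without overlap. This was 1.32-fold, or 0.40 in log2 (SE 0.09), with a 95% interval from 0.20 to 0.60. The call was lost with upper-quartile scaling (0.36) and on leaving out WT replicate 1 (0.39), 2 (0.39) or 3 (0.42) or ADCY3∆AT replicate 2 (0.40) or 3 (0.32). Without ADCY3∆AT replicate 1 it was kept (0.49).

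Hspa5 encodes BiP, the HSP70 of the endoplasmic reticulum and a marker of ER stress. It stood at 221, 251 and 243 CPM in WT and at 238, 275 and 247 CPM in ADCY3∆AT. The groups overlapped, and their log2 difference of 0.09 (SE 0.08) had a 95% interval from -0.10 to 0.27. Hspa13, also called Stch, is a short HSP70 relative of the ER that lacks the substrate-binding domain. It stood at 12.8, 14.2 and 12.1 CPM in WT and at 13.5, 14.02 and 12.8 CPM in ADCY3∆AT, a log2 difference of 0.04 (SE 0.10) with bounds of -0.18 and 0.27. The ADCY3∆AT values of Hspa13 fell within the WT range.

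Hspa9 encodes the mitochondrial HSP70. It was at 1111, 1110.1 and 981 CPM in WT and at 1142, 1164 and 1099.6 CPM in ADCY3∆AT. The groups overlapped only through ADCY3∆AT replicate 3, and the log2 difference, 0.09 (SE 0.07), had a 95% interval from -0.08 to 0.26. Of its 31-base words, 13.9% also occur in the pseudogene Hspa9-ps1. The upper ends of the 95% intervals of Hspa5, Hspa13 and Hspa9, at most 0.27, lay below the lower ends of those of Hspa1a, Hspa1b, Hsph1, Hspa4l and Hspa8, of which that of Hspa8, 0.70, was the lowest. The interval of Hspa4, which began at 0.20, overlapped those of Hspa5, Hspa13 and Hspa9.

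**Figure D2:**
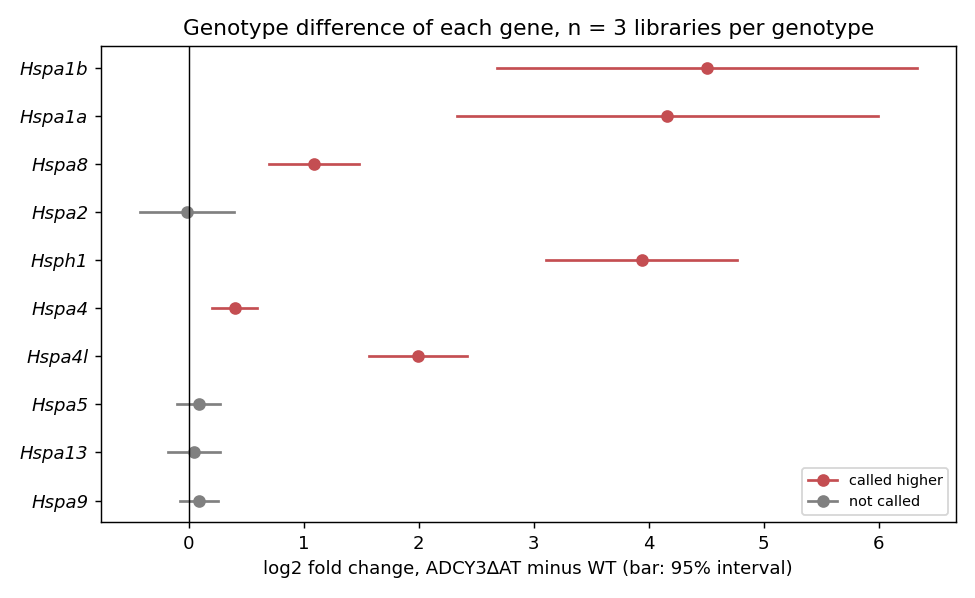
Log2 fold change (ADCY3∆AT minus WT) of each chaperone gene from edgeR, with its 95% interval as a bar, n = 3 libraries per genotype. Hspa1b, Hspa1a and Hsph1 lie between 3.94 and 4.51 with wide intervals for the Hspa1 genes, and the intervals of Hspa2, Hspa5, Hspa13 and Hspa9 cross 0.

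Levels were compared between genes as CPM per kilobase of exon. In WT the order was Hspa9 (247.7 ± 17.4, SD, n = 3), Hspa8 (189.8 ± 18.3), Hspa5 (56.4 ± 3.62), Hspa4 (18.4 ± 0.460), Hspa1b (8.61 ± 4.21), Hspa1a (6.04 ± 3.31), Hsph1 (2.67 ± 0.443), Hspa13 (1.91 ± 0.155), Hspa4l (1.53 ± 0.149) and Hspa2 (1.42 ± 0.196). The mitochondrial form thus had the highest message level of the family in WT brown fat. With all exons as the length, Hspa1b and Hspa1a overlapped in this order, as did Hspa4l and Hspa2, and the other neighbours did not. In ADCY3∆AT, Hspa8 (404 ± 97.8 CPM per kilobase) stood above Hspa9 (263 ± 7.61), and Hspa1b (197 ± 159) and Hspa1a (109 ± 90.2) came next, above Hspa5 (59.9 ± 4.605). This order ranks each gene singly, although the split of counts between Hspa1a and Hspa1b is uncertain. The sum of their levels lay above Hspa9 in the ADCY3∆AT mean and in replicates 2 and 3, and below it in replicate 1. With the longest transcript as the length, the sum lay above Hspa9 in replicate 3 alone. Hsph1 (41.2 ± 19.1) stood above Hspa4 (24.3 ± 2.59) in the ADCY3∆AT means, and Hspa4l (6.11 ± 1.53), Hspa13 (1.97 ± 0.0887) and Hspa2 (1.41 ± 0.0459) came last. The order of the means did not hold in each library. In ADCY3∆AT replicate 3, Hspa1b (348) stood above Hspa9 (255). In replicate 1 the order differed too. There, Hspa1b (31.6) and Hspa1a (17.98) stood below Hspa5 (56.3), and Hsph1 (20.7) stood below Hspa4 (21.7). With the longest transcript as the length, Hsph1 stood above Hspa4 in replicate 1, at 50.1% and 41.3% of the summed HSP110 level. With that length, Hspa1a and Hsph1 also overlapped in WT, and Hspa4l and Hspa2 did not.

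The makeup of the cytosolic pools shifted with these levels. Hspa1a and Hspa1b together made up 4.89%, 5.88% and 10.01% of the summed CPM per kilobase of the 4 cytosolic HSP70 genes in WT and 14.5%, 41.4% and 54.0% in ADCY3∆AT. With this length, the inducible forms outweighed Hspa8 and Hspa2 in ADCY3∆AT replicate 3 alone. The cytosolic HSP70 total was 206 ± 24.7 CPM per kilobase in WT and 342, 779 and 1013 in ADCY3∆AT replicates 1, 2 and 3, a 3.46-fold ratio of means. Counted with the longest transcript instead of all exons, the inducible share averaged 5.20% in WT and 30.5% in ADCY3∆AT, and at 46.3% in replicate 3 it outweighed the other forms in no library.

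In the HSP110 pool, Hspa4 was the main form in WT, and Hsph1 was the main form in the ADCY3∆AT means. Hsph1 made up 12.3%, 9.95% and 13.1% of the summed CPM per kilobase of Hspa4, Hspa4l and Hsph1 in WT and 44.2%, 58.9% and 63.2% in ADCY3∆AT. Hspa4 made up 81.4% ± 0.83 in WT and 35.9% ± 9.26 in ADCY3∆AT (SD, n = 3 each). The share of Hspa4l was 6.79% ± 0.82 and 8.69% ± 0.85, and its ranges in the genotypes, 6.18% to 7.72% and 7.73% to 9.33%, met almost end to end; with the longest transcript they overlapped, at 6.18% to 7.79% and 6.83% to 8.62%. The HSP110 total was 22.6 ± 0.74 CPM per kilobase in WT and 71.6 ± 23.1 in ADCY3∆AT, a 3.17-fold ratio. All 10 members together took 2320.5 ± 32.9 CPM in WT and 4524 ± 1273 CPM in ADCY3∆AT, a 1.95-fold ratio.

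**Figure D3:**
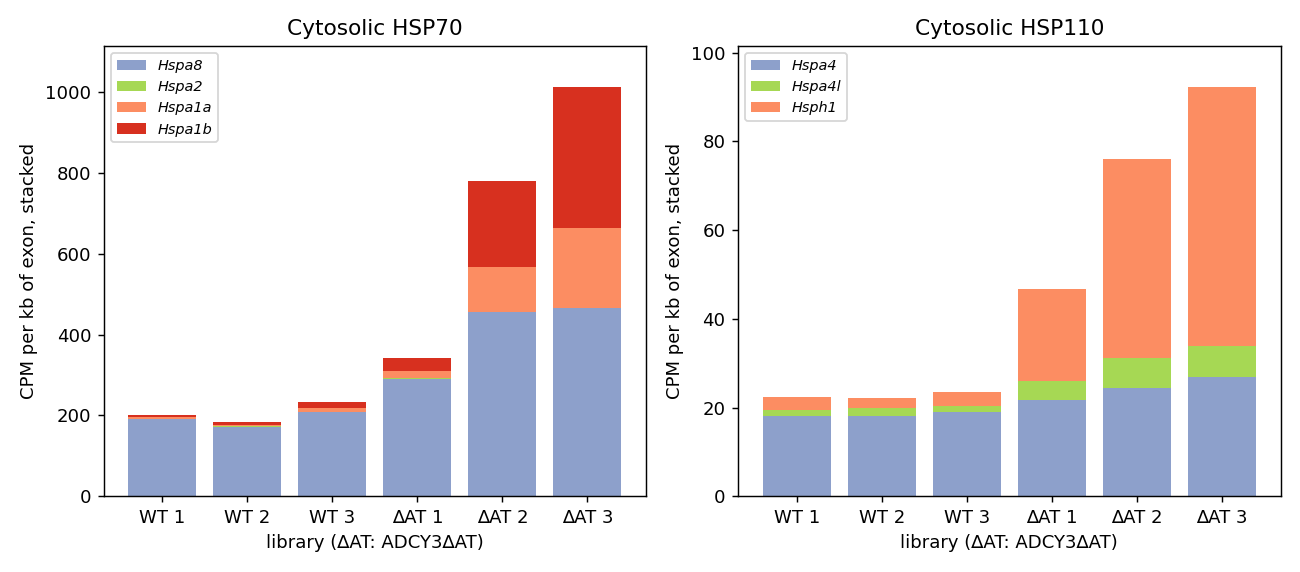
Stacked CPM per kilobase of exon of the cytosolic HSP70 genes (left) and of the HSP110 genes (right) in each library; each bar is 1 library. The Hspa1a and Hspa1b segments fill 4.89% to 10.01% of the HSP70 bar in WT and 14.5% to 54.0% in ADCY3∆AT, and the Hsph1 segment fills 9.95% to 13.1% and 44.2% to 63.2% of the HSP110 bar.

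Ratios between forms within a library do not depend on library scaling. The log2 ratio of summed Hspa1a and Hspa1b to Hspa8 was -4.86, -4.57 and -3.74 in WT and -3.14, -1.09 and -0.35 in ADCY3∆AT, a mean difference of 2.86. The log2 ratio of Hspa5 to Hspa8 was -1.89, -1.55 and -1.88 in WT and -2.40, -2.83 and -3.02 in ADCY3∆AT. The ratio of Hspa9 to Hspa8 was 0.44, 0.59 and 0.14 in WT and -0.13, -0.75 and -0.86 in ADCY3∆AT. The ER and mitochondrial ratios to Hspa8 were thus each about 1 log2 unit lower in ADCY3∆AT (-0.98 and -0.97), without overlap between genotypes. They share Hspa8 as denominator, whose own log2 fold change was 1.09, while those of Hspa5 and Hspa9 were 0.09 each. Against Hspa4 in place of Hspa8, the differences were 3.53 for the Hspa1 sum, -0.31 for Hspa5 and -0.30 for Hspa9, and the Hspa9 ranges then overlapped.

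The 6 members called higher varied together across libraries. ADCY3∆AT replicate 1 was the lowest of its group for 6 of the 6, whereas it was lowest for 32.9% of all 377 genes called higher and for 35.8% of all genes tested. Relative to the WT mean, replicate 1 stood at 2.98-fold for Hspa1a, 3.67-fold for Hspa1b, 7.73-fold for Hsph1, 2.84-fold for Hspa4l, 1.53-fold for Hspa8 and 1.18-fold for Hspa4. The highest ADCY3∆AT library exceeded the lowest by 11.04-fold for Hspa1a, 11.02-fold for Hspa1b, 2.82-fold for Hsph1, 1.64-fold for Hspa4l, 1.60-fold for Hspa8 and 1.24-fold for Hspa4. Among these 6 genes, the spread within ADCY3∆AT was thus widest for Hspa1a and Hspa1b and narrowest for Hspa4. ADCY3∆AT replicate 1 also had the lowest summed markers of its group for macrophages (39.1 CPM, against 67.0 and 74.7 in replicates 2 and 3), fibroblasts (152, against 195 and 223), lymphocytes (2.64, against 4.91 and 5.92) and erythroid cells (683, against 1287 and 1059). It had the highest sums for Schwann cells (94.1, against 72.6 and 57.6) and muscle (2.70, against 1.53 and 1.22). The part of these differences in the chaperone values was not tested.

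Across the 6 libraries, Pearson's r of log2(CPM + 0.5) was 0.934 to 0.997 for the 15 pairs among the 6 called members, and 0.79 to 0.993 for deviations from the genotype means. For the 24 pairs of a called and an uncalled member r was -0.117 to 0.616, and -0.48 to 0.604 for the deviations. For the 6 pairs among Hspa2, Hspa5, Hspa13 and Hspa9 it was -0.246 to 0.788, and -0.279 to 0.797 for the deviations. Highest among those 6 pairs, by either measure, was Hspa13 with Hspa9. These values describe 6 libraries of 2 genotypes that the points share, and the first range holds the genotype difference itself.

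The genes whose pattern was most like that of the Hspa1 sum, by the same r over 6 libraries among 11637 candidates, were Tmem33 (0.995), Snap23 (0.993), Tubb2a (0.993), Bag3 (0.992) and Dnaja1 (0.992). Tmem33 is a membrane protein of the ER, Snap23 a SNARE protein of membrane fusion, Tubb2a a beta-tubulin, Bag3 an HSP70 exchange factor and Dnaja1 a J-domain partner. For Hspa8, the 5 most alike of 11636 candidates were Cacybp (0.999), Fkbp4 (0.998), Dnaja1 (0.998), Tmem33 (0.996) and Tubb2a (0.996). Tmem33, Tubb2a and Dnaja1 thus stood on both lists. The size of the change was not alike: Snap23 was at 24.4, 24.0 and 25.9 CPM in WT and 27.1, 30.4 and 30.7 CPM in ADCY3∆AT, a narrow range beside that of the Hspa1 sum.

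Of 65 partner genes on 7 lists, 64 were tested, 17 were called higher and 0 lower, beside 2.63% and 1.67% of all genes. At an unadjusted p of 0.05, edgeR gave 26 higher and 1 lower, and the share of all genes at that p was not counted. DESeq2 called 21 and 0, beside 593 and 345 of all genes. Calls by limma-voom were 15 and 0, beside 321 and 204 of all genes. The lists were made with the earlier results known, so they are described by their counts and medians only. Without 1 library the count of 17 ranged from 7 to 21, with 7 on leaving out WT replicate 1, 8 for WT replicate 2 and 10 for ADCY3∆AT replicate 2.

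Cytosolic J-domain proteins hand clients to Hspa8 and Hspa1. Of the 13 tested, 4 were called higher, with a median log2 fold change of 0.17 for the list. Dnaja1, a partner in protein folding, was at 105, 98.3 and 130.4 CPM in WT and at 223, 421 and 475 CPM in ADCY3∆AT (log2 fold change 1.75). Dnajb2, a form best known from neurons, was at 50.2, 43.4 and 51.3 CPM in WT and at 74.1, 87.9 and 95.2 CPM in ADCY3∆AT (0.83). Both separated the genotypes with ADCY3∆AT replicate 1 lowest of its group. The other 9 were not called. The list had 1 call without WT replicate 1, and 2 calls with limma-voom or on leaving out WT replicate 2, WT replicate 3 or ADCY3∆AT replicate 2.

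Among 10 exchange factors and adaptors of cytosolic HSP70, 3 were called higher and the median was 0.09. Stip1, which links HSP70 to HSP90, was at 42.9, 39.4 and 47.6 CPM in WT and at 111, 165 and 188 CPM in ADCY3∆AT (log2 fold change 1.84). St13, an adaptor that steadies the ADP-bound form, was at 117, 119.8 and 136 CPM in WT and at 175, 173 and 197 CPM in ADCY3∆AT (0.55). Bag3, named above for its pattern, had a log2 fold change of 1.57. The other 7, Bag1, Bag2, Bag4, Bag5, Bag6, Hspbp1 and Stub1, were not called. Leaving out WT replicate 1 or 2 reduced the calls of this list from 3 to 1, and leaving out WT replicate 3 or ADCY3∆AT replicate 2 to 2.

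ER partners of Hspa5 gave 1 call of 10, with a median of 0.07. It was Hsp90b1, the ER form of HSP90, at 138, 144 and 144 CPM in WT and at 172, 183 and 174 CPM in ADCY3∆AT (log2 fold change 0.31). The call was lost with upper-quartile scaling and without any 1 library except ADCY3∆AT replicate 1. Mitochondrial partners of Hspa9 gave 0 calls of 11 by edgeR (2 higher and 1 lower at an unadjusted p of 0.05, 2 higher by DESeq2, 0 by limma-voom), with a median of -0.02. With no filter on low counts, or without ADCY3∆AT replicate 1, edgeR called 2 of them higher, beside 1204 and 301 of all genes. The chaperonin genes Hspd1 (0.38) and Hspe1 (0.43) had the largest values of that list and did not overlap between genotypes. They were named after their values were seen.

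Heat shock factors and their regulator gave 0 calls of 4 by edgeR (1 higher at an unadjusted p of 0.05, 0 by DESeq2 and by limma-voom), with a median of 0.03. Hsf1, the factor that drives the heat-inducible genes and is controlled mainly at the protein level, had a log2 fold change of 0.31 and was named after its value was seen. The 5 other HSP70 and HSP110 genes gave 0 calls by edgeR (1 higher at an unadjusted p of 0.05, 1 by DESeq2, 0 by limma-voom), with a median of 0.16. Of those, the ER exchange factor Hyou1 had the largest value, 0.33, again named after it was seen.

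Of the 7 lists, other heat-inducible genes had the largest share called, 9 of 11, with a median log2 fold change of 1.04. Hspb1, the small heat shock protein Hsp27, was at 52.2, 53.9 and 63.7 CPM in WT and at 241, 459 and 627 CPM in ADCY3∆AT (2.96). Hsp90ab1, the constitutive cytosolic HSP90, was at 544, 509 and 570.2 CPM in WT and at 1111, 1349 and 1652 CPM in ADCY3∆AT (1.34). In both, ADCY3∆AT replicate 1 was again the lowest of its group, as it was for 15 of the 17 called partner genes. The calls of this list fell from 9 to 5 on leaving out WT replicate 1 or 2 and to 6 on leaving out ADCY3∆AT replicate 2.

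**Figure D4:**
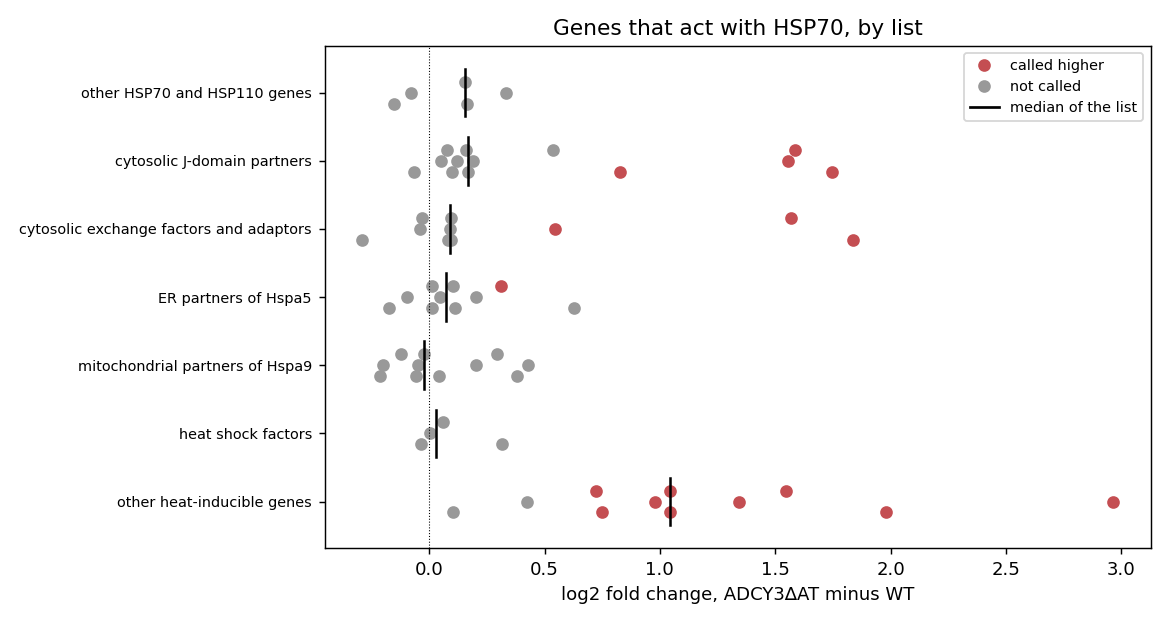
Log2 fold change (ADCY3∆AT minus WT) of each tested partner gene, by list; each point is 1 gene, red points are called higher and the vertical bar is the median of the list. Other heat-inducible genes reach 2.96 with 9 of 11 called (5 when WT replicate 1 or 2 is left out), and the mitochondrial partners of Hspa9 lie around -0.02 with 0 of 11 called.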

How the data were processed

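All 6 libraries stand in 1 gene table of estimated counts made by the authors, with StringTie, Salmon and edgeR and the build GRCm38 named per the submitters' processing notes; which step each tool served, and versions, are not given in the sources used here. Paired-end libraries were made from polyadenylated RNA with a NEBNext Ultra II kit, per the labels' protocols. Of values above 0, 38.0% were whole within 0.0005, so counts were rounded first. Rows were matched to GENCODE M21 by identifier (54131 of 54385 with a symbol).

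Genes passing filterByExpr (minimum count 10, total 15) were tested with edgeR 4.0.16 (R 4.3.3, TMM scaling, quasi-likelihood F test) on all 6 libraries without a block, with Benjamini-Hochberg adjustment over all 14332. The script was tested on simulated data. Shares and levels used CPM divided by the union of exons. The members and lists were chosen with earlier results of these data known. Named genes were all members, up to 2 called genes of smallest p per partner list, the most abundant gene of each marker list, and the 5 genes most alike the Hspa1 sum and Hspa8 (mean CPM at least 1). Alternatives were DESeq2 1.42.0 (size factors, and Wald test), upper-quartile factors, limma-voom 3.58.1, no filter, a CPM filter and a replicate block. Others were leaving out each library and replacing Hspa1a and Hspa1b by their sum. Chi-square statistics between replicates were 6.34 to 26.57 per gene, so no 2 libraries of a genotype agreed within sampling noise. No sequence of Hspa9 is shown.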

Additional observations from a re-analysis of the deposited data

How the results depend on the processing

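With 3 libraries per genotype, counts of calls moved more than values did. Over all genes, 1204 were called higher and 747 lower with no filter on low counts. There, edgeR's adjusted p of Hspa8 was 2.069e-37, against 0.01496 with the filter. Its log2 fold changes were nearly alike (1.11 and 1.09), so calls without the filter carry little weight. The DESeq2 Wald test called 593 higher, and the replicate number as a block gave 193 higher and 131 lower. Leaving out each library gave 84 to 301 higher and 78 to 160 lower. Upper-quartile factors changed the split from 377 higher and 239 lower (61.2% higher) to 282 and 274 (50.7%) and moved the median log2 fold change of all genes from -0.007 to -0.045. Same-numbered libraries of the genotypes did not deviate together over all genes tested (r = -0.007, 0.007 and -0.045). The sample labels state no pairing, and an r over all genes cannot exclude one that touches some of them. With the block, 5 members and 17 partner genes were called. The Hspa1 sum was at 3.97 and kept its call. Hspa4 (0.40) and the ER partner Hsp90b1 lost theirs, and 1 mitochondrial partner gained a call.

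The members called ranged from 2 to 6 when 1 library was left out, with 2 on leaving out WT replicate 1 or 2 or ADCY3∆AT replicate 2. The Hspa1 sum ranged from 3.65 to 4.89 and was at 3.90, not called, with limma-voom. Called partner genes ranged from 7 to 21. Against Hspa4 in place of Hspa8, the differences in ratio were -0.31 for Hspa5 and -0.305 for Hspa9. Values near 0 changed sign, with no call either way: Hspa2 was at 0.0118 with no filter and ranged from -0.1155 to 0.0728 when 1 library was left out, and Hspa13 ranged from -0.0067 to 0.1103. Losing a library leaves fewer samples; beyond that, the cause was not tested. Hsph1 and Hspa4l kept their calls under all 14 alternatives run. In 1 of these, Hspa1a and Hspa1b replaced by their sum, the counts of Hsph1 and Hspa4l are unchanged.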
